A study of Mus musculus with 6 samples.

Results

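The urea cycle and the breakdown of amino acids are represented here by 41 genes, chosen by symbol as the urea cycle enzymes and carriers, the transaminases, and the enzymes of aromatic, branched-chain, histidine, proline and serine metabolism. All 41 were found, among 24421 genes listed for mouse liver, of which 6743 had a mean of 0. The study set liver mRNA of 3 wild-type (WT) C57BL/6 mice (C57BL/6 J in the methods) beside that of 3 mice heterozygous for PAI-1 (Pai-1+/-). The paper calls the WT mice littermate controls. The age was 21 weeks in the labels, and the paper states a slightly younger age. Both groups were fed without restriction, with standard chow named in the methods and no drug given to either group. Heterozygotes came from crosses of WT with Pai-1-/- mice, so that 1 functional copy of the gene for PAI-1, an inhibitor of plasminogen activators, was missing in every cell type. The labels name the sex of WT animals only, as male, and the methods describe male mice. The labels describe extraction from frozen liver, the methods from a piece kept in an RNA preservative, and in such bulk samples fewer cells of a type cannot be told apart from less RNA per cell.

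The values given below are the authors' mean normalized counts over all libraries of both genotypes. Normalized counts are reads per gene divided by a size factor for each library. Counts of single animals were deposited under animal numbers that match no sample label. No column could be given to a sample or a genotype, and these columns were not used. Levels of WT and Pai-1+/- livers, the spread and depth of single libraries and tests between the genotypes are therefore not given. The means sum to 30045982, the size of an average library after normalization. Every statement below is a description of the pooled mean without replicate error, and small differences in level between genes are not interpreted.

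Amino acids that are not needed for protein are stripped of their nitrogen, mainly by transaminases that pass it to glutamate and aspartate. In hepatocytes near the portal vein the nitrogen enters the urea cycle, which starts in mitochondria and ends in the cytosol, and urea leaves in the blood. A thin layer of hepatocytes around the central vein instead captures leftover ammonia as glutamine.

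Most of the 41 genes had high read counts in these livers, and a few had very low ones. Their mean normalized counts summed to 829061, which was 2.76% of the total. The median of the 41 genes was 12013, compared with 440.4 for the 12971 genes with a mean of at least 10, a ratio of 27.3. A mean normalized count above 10000 was reached by 26 of the 41 genes and by 392 of the 12971, or 3.02%. Another 9 genes lay between 1000 and 10000, and 6 lay below 1000. The plot of the distribution of levels shows a main group of genes at the upper end of the liver transcriptome and a few far below it. The range from Cps1 at 136698 to Phgdh at 4.11 spanned 4.52 on the log10 scale.

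**Figure D1:**
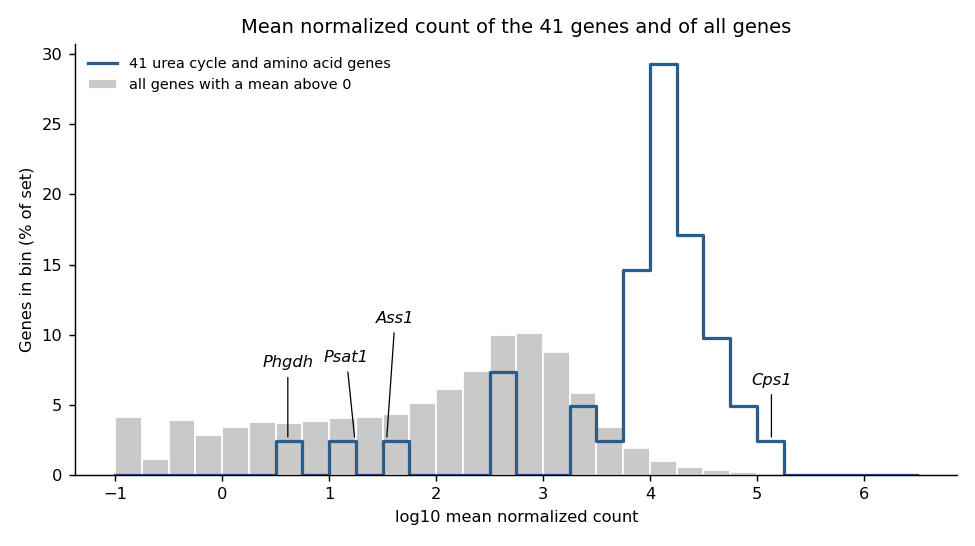
Distribution of the authors' mean normalized count over all libraries (log10, x axis) for all genes with a mean above 0 (grey bars) and for the 41 urea cycle and amino acid genes (blue line), each as a percent of its set per bin of the log10 scale. Of the 41 genes, 26 lie above 10000 (log10 of 4), while Ass1 (34.5), Psat1 (17.4) and Phgdh (4.11) lie far to the left.

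The tissue label was checked against marker genes. The 5 hepatocyte markers ranged from 24370 for Hnf4a to 2155546 for Alb (albumin), on the scale of mean normalized counts. The 4 markers of bile duct cells ranged from 25.8 to 268, the 4 of lymphocytes from 11.5 to 35.2, and the 5 of Kupffer cells, the resident macrophages, from 173 to 2374. The 4 markers of endothelial cells ranged from 205 to 1273, and the 4 of stellate cells from 135 for Des to 4160 for Dcn. Both markers of kidney and both of skeletal muscle had a mean below 10. Of the 3 red cell markers, Hbb-bs and Hba-a1 were listed at 0 and Alas2 had 2136.

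Among the 6 enzymes of the urea cycle itself, 5 had mean normalized counts from 1813 to 136698, and Ass1 stood apart at 34.5. The Ass1 value is uncertain, since the part of a near-identical copy in it, described below, was not tested. Cps1, which makes carbamoyl phosphate from ammonia in the first and rate-limiting step, had the highest mean normalized count of the 41 genes, 136698, and was the gene of rank 24 in the whole table. It alone made up 16.5% of the summed counts of the 41 genes. Cps1 lies on chr1:67123026-67231259 (mm10, plus strand), and its longest transcript has 38 exons and 5555 bases. Because a long transcript gives more reads for each molecule, ratios between genes are given below per kilobase of the longest annotated transcript, with their range over the other ways of handling length, while ranks, sums and shares refer to the counts themselves unless per kilobase is stated. Per kilobase Cps1 reached 24608.

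Arg1, arginase, which splits arginine into urea and ornithine in the last step, had a mean normalized count of 48555. Per kilobase Arg1 stood at 32874, and Asl, which releases arginine from argininosuccinate in the step before, at 12345. The level of Arg1 per kilobase was 2.66 times that of Asl, and the ratio stayed between 1.63 and 3.53 under the other ways of handling length. Whether Cps1 or Arg1 was the higher depended on the handling of length, since their ratio was 0.749 per kilobase of longest transcript and ranged from 0.606 to 2.82.

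Otc, which joins carbamoyl phosphate to ornithine and is X-linked (chrX:10252305-10321024), had a mean normalized count of 12961 and stood at 4325 per kilobase. Cps1 was 5.69 times as high as Otc per kilobase, with a range from 2.49 to 10.5. Nags makes N-acetylglutamate, the obligate activator of CPS1, and so plays a regulatory part. Its mean normalized count was 1813, and per kilobase Cps1 was 36.8 times as high, with a range from 26.5 to 75.4. Of the 2977 distinct 75-base words in Nags transcripts, 12.5% also occur in Gm11586, a gene that overlaps it on the other strand.

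Both mitochondrial carriers of the cycle were abundant. Slc25a15, which exchanges ornithine for citrulline, had a mean normalized count of 13373, and Slc25a13, citrin, which brings aspartate out of mitochondria for argininosuccinate synthesis, had 11713. Per kilobase they stood at 3019 and 3753. Their order turned with the handling of length, with ratios of Slc25a15 to Slc25a13 from 0.770 to 2.56.

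Ass1, argininosuccinate synthetase, joins citrulline to aspartate and brings in the second nitrogen of urea. Its mean normalized count of 34.5 gave it rank 11420 of 24421 genes. Per kilobase it stood at 20.3, and Asl, which acts on its product, was 608 times as high, with a range from 432 to 865. Ass1 lies on chr2:31470207-31520672 (mm10, plus strand), and its longest transcript of 1696 bases has 16 exons and 1236 coding bases.

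The mouse genome holds a processed pseudogene of Ass1, Gm5424, an intronless copy of the messenger RNA on chr10:62071123-62072362 (mm10, plus strand). The copy is 1240 bases long in GENCODE and covers the whole coding sequence of Ass1. Of the 1240 bases compared, 6 differed, so that the copies were 99.5% identical, and the longest stretch without a difference was 398 bases. The reads were 75 bases long. Of the 1622 windows of that length in the Ass1 transcript, 761, or 46.9%, occurred base for base in Gm5424. A further 456 windows lay outside the stretch compared, and these were not shown to be absent from the copy. RefSeq gives Gm5424 a longer span of 1550 bases (chr10:62071022-62072571), and the part beyond the GENCODE copy was not compared. Gm5424 was listed at a mean of 0.

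A window of read length from both genes is printed here to show how little separates them. The window lies in exon 7 of Ass1 (chr2:31488578-31488652) and in Gm5424 (chr10:62071543-62071617). Among coding windows within a single exon of Ass1 it is one of those that differ most, and it differs at 1 base. Windows across exon junctions were not considered in this choice. The substitution from Ass1 to Gm5424 is T9C, counted from 1 at the 5′ end of the window, and capitals mark it.
Ass1: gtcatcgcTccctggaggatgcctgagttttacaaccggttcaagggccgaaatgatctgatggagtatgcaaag
Gm5424: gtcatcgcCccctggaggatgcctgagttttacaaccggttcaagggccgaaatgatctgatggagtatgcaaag

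How reads that match both loci were counted is not given in the sources used here, and the part of this shared sequence in the low value of Ass1 was not tested. The value is therefore uncertain as a measure of Ass1 mRNA.

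The same comparison was made for every gene of the list, by asking which share of the 75-base words of a gene's transcripts also occurs in a transcript of another annotated gene. No such word was found for 26 of the 41 genes, and 10 genes had more than 5% shared. The highest shares were 43.0% for Bckdha, 35.8% for Phgdh, 32.6% for Ass1 over all its transcripts and 28.7% for Aldh4a1. Bckdha shares its words with B3gnt8, which overlaps its exons on the other strand by 1171 bases and had a mean normalized count of 5.41. Aldh4a1 shares them with Gm21969, an overlapping gene on the same strand. For Phgdh the partners were pseudogenes, led by Gm7901 with 32.2% of the words.

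Smaller shares were found for Got2 (19.3%), Sds (18.3%, mostly with its neighbour Plbd2), Nags (12.5%), Qdpr (9.04%), Gstz1 (7.89%, mostly with its neighbour Pomt2) and Glul (6.63%). The values of all these genes are therefore uncertain, but the share of words does not measure by how much. Of the 4 genes with the highest shares, Bckdha had a mean normalized count of 7585, Aldh4a1 of 13713, Ass1 of 34.5 and Phgdh of 4.11, and the part of the shared words in these values was not tested.

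**Figure D2:**
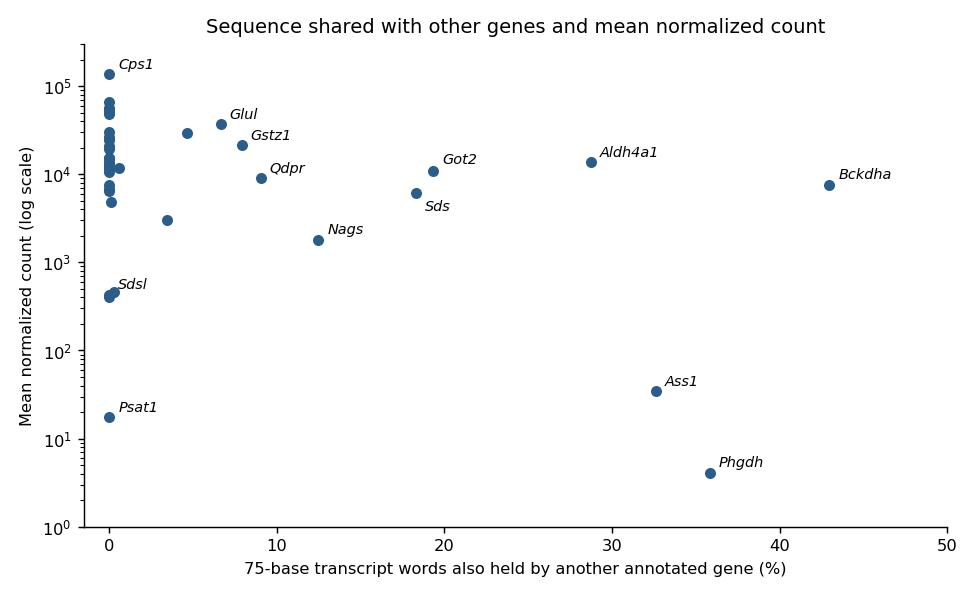
Mean normalized count of each of the 41 genes (log scale, y axis) against the percent of the 75-base words of its transcripts that also occur in another annotated gene (x axis), with 1 point per gene. Bckdha, Aldh4a1, Ass1 and Phgdh lie furthest to the right, and of these Ass1 (34.5) and Phgdh (4.11) have low counts, while Psat1 (17.4) is low at 0%.

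The breakdown of phenylalanine and tyrosine, a pathway that runs almost wholly in liver and ends in fumarate and acetoacetate, held 6 genes and 23.3% of the summed counts. Every step from tyrosine on had a mean normalized count of at least 19385. Tat, the hormone-responsive transaminase that opens the pathway, had a mean normalized count of 56732. Hpd, which forms homogentisate, had 65284, and Hgd, which opens its ring, had 21138. Gstz1, the maleylacetoacetate isomerase, had 21410, and Fah, which cleaves fumarylacetoacetate and is lost in tyrosinemia, had 19385.

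Per kilobase Hpd stood highest of all 41 genes, at 46499. Tat stood at 23887, Hgd at 12420 and Fah at 12230, and Hpd was 3.74 times as high as Hgd, with a range from 3.09 to 3.80. Gstz1 stood at 7054 per kilobase, but its longest annotated transcript has no coding part, and the longest coding transcript put it at 12929, near Hgd and Fah. Qdpr, which regenerates tetrahydrobiopterin, a cofactor of aromatic amino acid hydroxylation, had a mean normalized count of 8986 and stood at 6512 per kilobase.

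In the kynurenine pathway of tryptophan the first enzyme stood above the others listed, also per kilobase. Tdo2, the liver-enriched dioxygenase that opens the indole ring, had a mean normalized count of 53172. Kmo, which hydroxylates kynurenine at the mitochondrial outer membrane, had 12013, Haao, which acts on 3-hydroxyanthranilate on the way to NAD, had 7620, and Kynu, which cleaves hydroxykynurenine, had 6798. Per kilobase Tdo2 was 4.74 times as high as Kmo, with a range from 4.43 to 5.39, and 6.33 times as high as Kynu, with a range from 6.33 to 12.4. Haao stood at 2444 per kilobase of its longest transcript, which has no coding part, and at 5517 per kilobase of the longest coding one. Further along, Acmsd, which diverts the pathway away from NAD, had a mean normalized count of 339.5, and Qprt, which commits it to NAD, had 3403.

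The group of 5 transaminases of ornithine, aspartate and alanine had mean normalized counts from 10524 to 50669. Oat, which turns ornithine into glutamate semialdehyde and is a marker of hepatocytes around the central vein, had a mean normalized count of 50669 and led the group per kilobase at 23545. Got1 and Got2, the cytosolic and mitochondrial aspartate transaminases of the malate-aspartate shuttle, had 15268 and 10764. Gpt and Gpt2, the cytosolic and mitochondrial alanine transaminases, had 10524 and 26754.

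On the pooled mean the compartments stood in opposite order for aspartate and alanine transaminases. Per kilobase the cytosolic Got1 was 1.74 times as high as the mitochondrial Got2, with a range from 1.42 to 2.70. The mitochondrial Gpt2 was 1.96 times as high as the cytosolic Gpt, with a range from 1.25 to 2.54. The longest transcript of Gpt has no coding part, and the longest coding one gave the ratio of 1.25. Got2 shares words with Gm10874 and Got2-ps1, so its ratio carries the uncertainty given above.

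Glutamate and glutamine are handled by enzymes that are kept apart along the liver lobule. Glul, glutamine synthetase, is confined to hepatocytes next to the central vein, and it had a mean normalized count of 37056. Gls2, the liver glutaminase of periportal cells, had 11746, and Glud1, which releases ammonia from glutamate, had 29649. Glul was 2.91 times as high as Gls2 per kilobase, with a range from 2.91 to 5.09, and 1.52 times as high as Glud1, with a range from 1.25 to 1.87.

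Markers of both ends of the lobule were abundant in these bulk samples. Of the periportal markers, Pck1 had a mean normalized count of 154531 and Cyp2f2 had 37439. Of the perivenous markers, Cyp2e1 had 344411 and Cyp1a2 had 13818. The values do not give the share of cells in either zone.

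Serine, cystathionine and proline breakdown held genes of very different levels. Cth, which releases cysteine from cystathionine, had a mean normalized count of 24222. Sds, the serine dehydratase that makes pyruvate for gluconeogenesis, had 6061. Its neighbour and relative Sdsl, which lies on the same part of chromosome 5 (Sds at chr5:120476526-120483932, Sdsl at chr5:120458186-120472810), had 430.7, and Sds was 16.1 times as high per kilobase, with a range from 12.4 to 16.1. No 75-base word of Sdsl occurs in another gene, but 18.3% of those of Sds do, so the ratio carries the uncertainty given above. Aldh4a1, which finishes proline breakdown by oxidizing glutamate semialdehyde, had 13713. Prodh, which opens proline breakdown, had 6423, and Prodh2, which acts on hydroxyproline, had 4876. Prodh and Prodh2 changed places with the handling of length, with ratios from 0.415 to 1.32.

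Branched-chain amino acids are oxidized mostly outside the liver, since liver lacks much of the first transaminase. The subunits of the ketoacid dehydrogenase, Bckdha and Bckdhb, had mean normalized counts of 7585 and 3027, and Bckdk, the kinase that switches the complex off, had 456. Per kilobase Bckdhb was 15.3 times as high as Bckdk, with a range from 6.64 to 15.3. Ppm1k, the phosphatase that switches the complex on, had 4582. Bcat2, the mitochondrial transaminase of the first step, had 666, and the other subunits Dbt and Dld had 3520 and 4998.

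Histidine is taken to glutamate by enzymes of which 3 are on the list. Uroc1, the urocanase, had a mean normalized count of 15360, Hal, the histidine ammonia-lyase before it, had 15003, and Ftcd, which passes the formimino group to folate, had 11574. Their order per kilobase turned with the handling of length, with ratios of Uroc1 to Hal from 0.947 to 1.64 and of Hal to Ftcd from 0.471 to 1.30. Amdhd1, the imidazolonepropionase between Uroc1 and Ftcd, had a mean normalized count of 7359.

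The synthetic enzymes on the list stood at the other end of the range. Asns, which makes asparagine and responds to amino acid shortage through ATF4, had a mean normalized count of 406. Psat1 and Phgdh, which make serine from 3-phosphoglycerate, had 17.4 and 4.11, and Phgdh was the only 1 of the 41 genes below 10. Together these 3 genes held 0.0516% of the summed counts. Asns was 92.8 times as high as Phgdh per kilobase, with a range from 89.9 to 98.9. This range covers the handling of length only. Of the words of Phgdh, 35.8% are shared, so the ratio carries the uncertainty given above. Psph, the last enzyme of serine synthesis, had a mean normalized count of 127, and the proline-making enzymes Pycr1 and Aldh18a1 had 2.90 and 46.3. Atf4 itself had 2494.

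**Figure D3:**
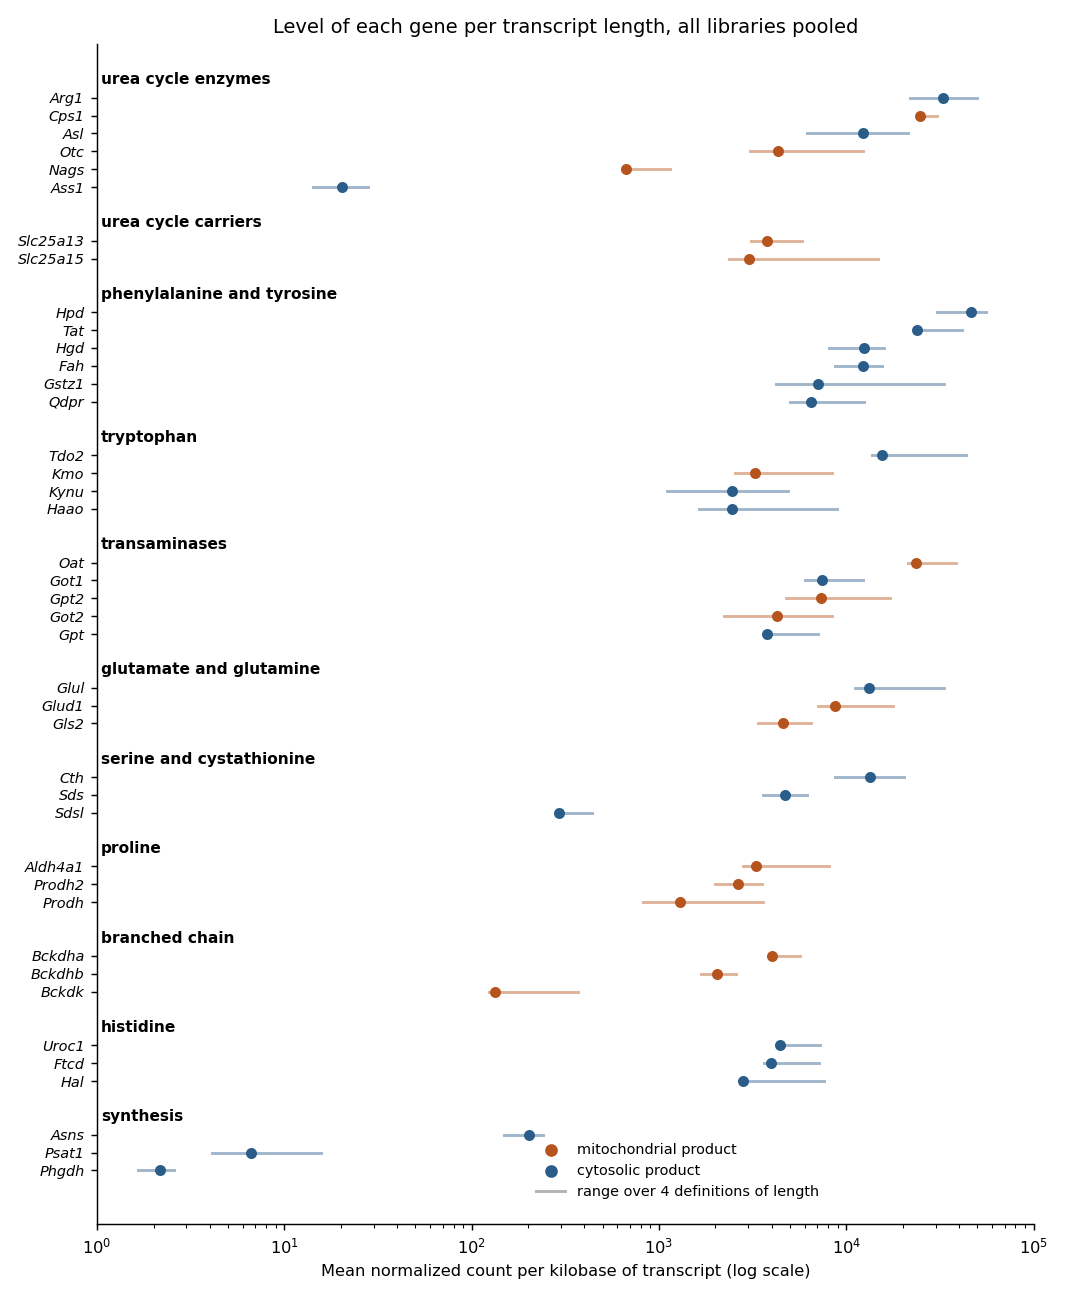
Authors' mean normalized count over all libraries per kilobase of the longest transcript (log scale, x axis) for each of the 41 genes, grouped by pathway, with mitochondrial products in orange and cytosolic ones in blue. Lines span 4 definitions of transcript length. Hpd stands highest at 46499 and Ass1 at 20.3 stands far below the other urea cycle enzymes.

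**Figure D4:**
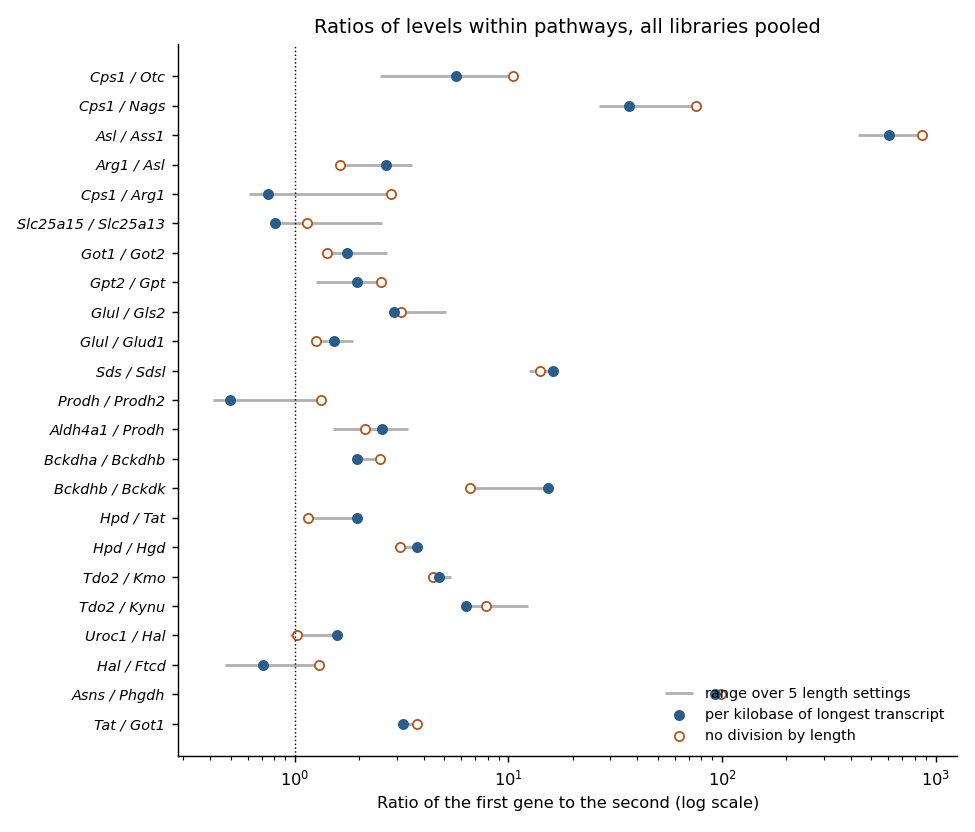
Ratio of the first to the second gene of each pair (log scale, x axis), per kilobase of longest transcript (filled points), without division by length (open points) and as the range over 5 length settings (lines), with a dotted line at equal levels. Asl to Ass1 is the widest gap at 608, and the lines of Cps1 to Arg1, Slc25a15 to Slc25a13, Prodh to Prodh2, Uroc1 to Hal and Hal to Ftcd cross the dotted line.

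By compartment, the 24 genes with cytosolic products held 57.3% of the summed counts with a median of 15136. The 17 genes with mitochondrial products held 42.7% with a median of 11746. Per kilobase the medians were 5609 and 3753. By pathway, the 6 urea cycle enzymes held 27.7%, the transaminases 13.7%, tryptophan 9.60%, glutamate and glutamine 9.46%, histidine 5.06%, serine and cystathionine 3.70%, the carriers 3.03%, proline 3.02% and branched-chain breakdown 1.34%.

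A wider list of 47 genes of amino acid metabolism gave the surroundings of these values. Its median mean normalized count was 4933, 11 of the 47 exceeded 10000 and 3 lay below 10. Mat1a, which makes S-adenosylmethionine, had 236497, and Cdo1, which oxidizes cysteine, had 69457. Gnmt, which consumes S-adenosylmethionine, had 48189, the glutamine and histidine transporter Slc38a3 had 43322, and the arginine transporter Slc7a2 had 22933. Of enzymes other than Arg1 that use arginine, Arg2, the mitochondrial arginase of other tissues, had 22.9 and Nos2, the inducible nitric oxide synthase, had 1.54. In lysine breakdown Aass had 20205, Aldh7a1 had 17721 and Gcdh had 18835.

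The mean normalized counts of 17 regulators linked to these pathways had a median of 2476 and began at 413, the value of Sirt5, which deacylates CPS1. Hnf4a had 24370, Ppara 9756, Cebpa 9675 and the glucagon receptor gene Gcgr 7690. Klf15, which promotes amino acid breakdown in fasting, had 5226. These are levels of mRNA only.

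The sequence at the start sites was described by counting CG pairs from 250 bases before to 50 bases after each start in RefSeq (GRCm38.p6). Windows were matched for 32 of the 41 genes, taking the highest count where a gene had several. No window was matched for Cps1, Asl, Arg1, Kynu, Gpt, Gls2, Sds, Sdsl and Cth. The median of the 32 genes was 14.5 pairs, from 0 in Uroc1 to 51 in Glud1 and Slc25a15. The median was 21 pairs over 9913 genes with a mean of at least 10, and 10 pairs over the 297 of them with a mean above 10000. Abundant liver genes as a set thus also had fewer CG pairs than the 9913 genes. The difference from the 32 genes was not tested.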

How the data were processed

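Liver mRNA was sequenced from 3 WT and 3 Pai-1+/- mice as 75-base single-end reads. Alignment by the authors was to mm10 with STAR, and DESeq2 was run on the genotypes, both in the RNA Express BaseSpace application. The submitters' processing notes also name HOMER. Versions, annotation, strand setting and the treatment of reads with several matches are not given in the sources used here. The signal used is the mean normalized count of the authors' deposited table, each gene's scaled count averaged over the libraries of both genotypes. The table's other columns hold the authors' fold changes, standard errors, test statistics, p-values and adjusted p-values, and were not used. In the deposited counts, 6 per-sample columns carry animal numbers that match no label and were not used. The genotype comparison intended for those counts was therefore not made.

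Members and lists were chosen with earlier results of these data known. All 41 members are named, and the other genes come from fixed lists of amino acid genes, regulators and cell type markers. Acmsd and others of these lists were picked for their place in a pathway. The results of some genes and 1 sequence are not reported here. Kyat1 and Kyat3 were matched by older symbols. B3gnt8, Gm5424 and other genes sharing sequence were chosen after their values were seen. Lengths, coordinates and 75-base words came from GENCODE M21 (GRCm38, the assembly of mm10), and CG pairs from RefSeq. The word search was tested on simulated transcripts. Alternatives were other lengths and denominators. The longest transcript with a coding part was added after the data were seen. Precision is not given, since the per-sample columns were not used. Python 3.11.15, NumPy 2.4.6, pandas 2.3.3 and Matplotlib 3.10.9 were used.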

Additional observations from a re-analysis of the deposited data

How the results depend on the processing

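No paired analysis was possible because the columns of the deposited counts carry no sample label, genotype or replicate number, and the genotype comparison with its other scaling, filter, replicate block and left-out libraries was not run. The share of the total taken by the 41 genes was 2.76%. It was 3.32% when the 10 genes of highest mean, which hold 16.8% of the total, were left out, 2.30% without Cps1, and 2.76% over genes with a mean of at least 10 only. The order by level per kilobase of longest transcript was the same for 95.7% of gene pairs with the exon union as length, 88.8% with coding length, 95.4% with the longest transcript that has a coding part and 88.5% with no division by length. The longest transcript of 8 genes (Nags, Slc25a15, Gstz1, Haao, Gpt, Prodh, Aldh4a1 and Ftcd) has no coding part. The largest moves were of 8 places for Got2 with the exon union, 13 for Haao with both coding definitions and for Slc25a15 with coding length and 15 for Sds with no division by length. Library depth and replicate spread were not analysed here, so the precision of low means such as those of Phgdh and Psat1 is unknown.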

Other observations

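The 4 adult globin genes Hba-a1, Hba-a2, Hbb-bs and Hbb-bt were all listed at a mean of 0, while Alas2, the red cell gene of heme synthesis, had a mean normalized count of 2136. Of the 75-base words of these globin genes, 67.9%, 84.6%, 51.5% and 56.6% also occur in another annotated gene, against 9.92% for Alas2. The rest of their words occur in no other annotated gene, and the part of shared words in the means of 0 was not tested.

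Over all protein-coding genes matched by symbol, the share listed at 0 was 19.5% of 10502 genes with no shared word, 18.7% of 5996 genes with up to 10% shared, 23.0% of 1918 with 10 to 30%, 31.4% of 606 with 30 to 50% and 60.2% of 855 with over 50%. The last class still held 9 genes with a mean above 10000. Whether the genes listed at 0 belong to families that are silent in liver was not examined. These shares are a description, and the part of read matching in them was not tested.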
